A study of Mus musculus with 44 samples.

Results

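The 10 genes described here belong to the major histocompatibility complex (MHC) class I pathway and were followed through the formation of the mouse gut endoderm. They were chosen by name among the 32287 gene IDs of the deposited expression tables, where each had 1 ID of its own: the heavy chain genes H2-K1 and H2-D1, the light chain gene B2m, the peptide transport and loading genes Tap1, Tap2 and Tapbp, the immunoproteasome genes Psmb8, Psmb9 and Psmb10, and the transactivator gene Nlrc5. The choice was by name and pathway, and it was made with earlier results of these data known.

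Expression was measured as TPM (length-corrected transcript abundance), scaled to the same total in each library, in 44 low-input bulk RNA-seq libraries that fall into 12 groups. The embryos carried 2 colours: GFP+ embryonic stem cells of the F1G4 line (a single-cell-derived clone, male) formed the embryo, and an mCherry+ morula of either sex, from CD-1 females and males of a piggyBac EF1a-mCherry line (F1G4-derived and crossed to C57BL/6J), formed the extraembryonic tissues. At E6.5, dissected tissue of single embryos gave the epiblast (Epi, n = 4) and the distal and proximal extraembryonic endoderm (exEndo1 and exEndo2, n = 4 each). At E9.5, sorted EPCAM+ cells gave embryonic (emMidgut, emHindgut) and extraembryonic (exMidgut, exHindgut) gut endoderm and yolk sac endoderm (YsEndo), with n = 4 each, and each gut library pooled 4 embryos. The embryonic E9.5 cells were GFP+ cells that also held a low mCherry signal. At E13.5, EPCAM+ cells of single embryos gave emSI, emColon, exSI and exColon (SI, small intestine), with n = 3 each. There the extraembryonic cells carried a Trp53 knockout made with Cas9 in zygotes, while the embryonic cells were wild type. Strain therefore goes with origin at every stage, and genotype goes with origin at E13.5, so neither can be told apart from origin. The E9.5 extraembryonic cells were wild type, so genotype also goes with stage from E9.5 to E13.5 in extraembryonic cells. The reference sequence is that of C57BL/6J, and reads from class I alleles of another strain may align less well, which was not tested.

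MHC class I molecules show fragments of a cell's own proteins on its surface, where cytotoxic T cells read them and natural killer cells sense their absence. The proteasome cuts proteins into peptides, the TAP1 and TAP2 transporter carries the peptides into the endoplasmic reticulum, tapasin (Tapbp) holds empty class I molecules close to it, and a loaded heavy chain leaves for the surface only with beta-2-microglobulin (B2m) bound. Interferon gamma raises most of these genes together, with IRF1 and the transactivator NLRC5 among the factors involved, and replaces the catalytic proteasome subunits Psmb5, Psmb6 and Psmb7 by Psmb8, Psmb9 and Psmb10. Cells of the early mammalian embryo are known for low class I levels. B2m also serves as the light chain of class I-like molecules such as CD1d and the neonatal Fc receptor (Fcgrt).

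The libraries held 3.53 to 12.04 Gb of aligned bases and 10382 to 13596 genes above 1 TPM. EGFP was at 179.6 TPM or more in the 18 embryonic libraries and at most 15.9 TPM in the others. Marker levels matched the labels, except for epiblast markers in emMidgut replicates 1 and 3. These summed to 159.7 and 180.8 TPM there, against 24.8 and 27.6 TPM in emMidgut replicates 2 and 4. Pou5f1 alone reached 130.9 TPM in emMidgut, and at most 2.40 TPM in emHindgut and 1.66 TPM in exMidgut. The epiblast markers summed to 2579 to 4265 TPM in Epi, 368.3 to 525.3 TPM in exEndo1 and 173.9 to 229.4 TPM in exEndo2, and the visceral endoderm markers (Afp, Ttr, Apoa1, Rbp4, Amn, Cubn) to 59160 TPM or more in YsEndo and at most 5.34 TPM in Epi. The visceral endoderm markers also separated the E9.5 regions, at 1429 to 3137 TPM in emMidgut, 7011 to 16780 TPM in exMidgut and 26.7 to 680.5 TPM in hindgut libraries of both origins. Mesenchymal markers summed to 182.3 to 665.0 TPM in the colon libraries and in emSI replicates 1 and 2, against at most 9.24 TPM in exSI and 1.75 TPM in emSI replicate 3. In the colon groups most of this was a single gene, Postn, at means of 350 TPM in emColon and 313.1 TPM in exColon. Whether other cells in a library contribute to a class I value was not tested, and in bulk libraries fewer expressing cells and less RNA per cell cannot be told apart.

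Most of the genes lie in the MHC region of chromosome 17 (mm10). H2-K1 is at chr17:33996017-34000347 on the minus strand and H2-D1 at chr17:35262730-35267499 on the plus strand. Tapbp (chr17:33915899-33929292) lies beside H2-K1, and between the heavy chain genes lie Psmb9 (chr17:34181987-34187764, minus strand), Tap1 (chr17:34187553-34197225), Psmb8 (chr17:34197721-34201454) and Tap2 (chr17:34203527-34216321), all but Psmb9 on the plus strand. B2m is on chromosome 2 (chr2:122147686-122153083), and Nlrc5 (chr8:94434356-94527272) and Psmb10 (chr8:105935735-105938444, minus strand) are on chromosome 8. The libraries are unstranded, so the 212 bases that Psmb9 and Tap1 share in opposite directions cannot be assigned, and Tapbp shares 3422 bases with Zbtb22 on the same strand. H2-K1 and H2-D1 are closely related paralogs among which reads can be split, so their values carry that uncertainty.

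Promoter sequences are shown for H2-K1, H2-D1 and B2m, whose products form the class I molecule, and for Psmb10, whose level fell where the heavy chains rose. They are the 250 bases before the RefSeq start (GRCm38.p6, the mm10 assembly), printed in the direction of transcription. Of the 10 genes, 8 had an entry, with 9 starts in all, and Tap2 and Nlrc5 had none. Capitals mark matches on either strand to GGGGATTCC (an NF-kB-type site), GAAANNGAA or GAANNGAAA (spacings of an interferon regulatory factor site), TGACG (the core of the X2 and CRE box) and CCAAT (the Y box). The letters come from knowledge of class I promoters, and the second spacing, the lengths searched and the spaced pair named after the sequences were chosen with these sequences in view.
H2-K1 (chr17:34000348-34000597, minus strand): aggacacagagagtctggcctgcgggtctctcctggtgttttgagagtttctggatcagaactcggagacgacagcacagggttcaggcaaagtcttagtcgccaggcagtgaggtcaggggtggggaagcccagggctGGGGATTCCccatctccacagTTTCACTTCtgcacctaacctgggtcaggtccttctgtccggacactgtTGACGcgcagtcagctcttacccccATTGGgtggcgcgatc
H2-D1 (chr17:35262844-35263093, plus strand): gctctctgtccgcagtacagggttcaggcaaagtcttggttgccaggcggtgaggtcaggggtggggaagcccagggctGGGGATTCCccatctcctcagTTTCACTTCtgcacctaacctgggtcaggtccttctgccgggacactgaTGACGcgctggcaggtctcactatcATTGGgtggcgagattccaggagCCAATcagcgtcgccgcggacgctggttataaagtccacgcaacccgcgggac
B2m (chr2:122147437-122147686, plus strand): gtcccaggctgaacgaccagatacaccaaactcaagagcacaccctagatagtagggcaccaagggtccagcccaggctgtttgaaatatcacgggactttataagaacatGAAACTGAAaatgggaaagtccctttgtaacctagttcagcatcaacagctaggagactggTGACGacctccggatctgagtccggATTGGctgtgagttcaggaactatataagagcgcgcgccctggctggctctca
Psmb10 (chr8:105938393-105938642, minus strand): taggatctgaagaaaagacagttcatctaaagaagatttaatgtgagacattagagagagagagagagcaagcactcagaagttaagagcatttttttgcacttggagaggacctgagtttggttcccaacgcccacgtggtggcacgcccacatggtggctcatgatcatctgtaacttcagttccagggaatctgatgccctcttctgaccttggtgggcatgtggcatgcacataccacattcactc
Both heavy chain promoters held GGGGATTCC, which 0.213% of all 32851 promoter windows of this length held, and an opposite-strand GAANNGAAA (6.31% of windows). B2m held no GGGGATTCC but held GAAANNGAA (7.13% of windows) 131 bases before its start. All of the 3 genes held TGACG followed, after 20 bases, by ATTGG, the reverse complement of CCAAT. That spaced pair was in 30 of the 32851 windows (0.0913%), while TGACG alone was in 17.8% and CCAAT alone in 33.8%. Psmb10 and Psmb8 held none of these letter strings. A match describes the letters in this window and says nothing of what binds there.

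Across the 44 libraries the 10 genes split into 5 that were present throughout and 5 that were at or near 0. B2m (median 193.7 TPM, range 17.2 to 607.4), H2-K1 (53.9 TPM, 3.33 to 167.5), H2-D1 (33.2 TPM, 3.06 to 114.0) and Psmb10 (53.2 TPM, 12.2 to 190.4) exceeded 1 TPM in all 44 libraries, and Tapbp (7.51 TPM, 0.98 to 47.3) in 43. Tap1 exceeded 1 TPM in 13 libraries, Psmb8 in 12, Tap2 and Psmb9 in 5 each and Nlrc5 in none, and their medians were 0.113 TPM for Tap1 and 0 for the others. A value of 0 in these tables is an estimate without counts, so these genes are given as listed at 0 and not as absent. Over the 12 group means, H2-K1 and H2-D1 ran most closely together (Pearson r = 0.92 on log2(TPM + 1)), and H2-D1 and Psmb10 most oppositely (r = -0.84). The remaining pairs lay between, with a median r of 0.13 over all 45 pairs, which share libraries and are not independent.

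**Figure D1:**
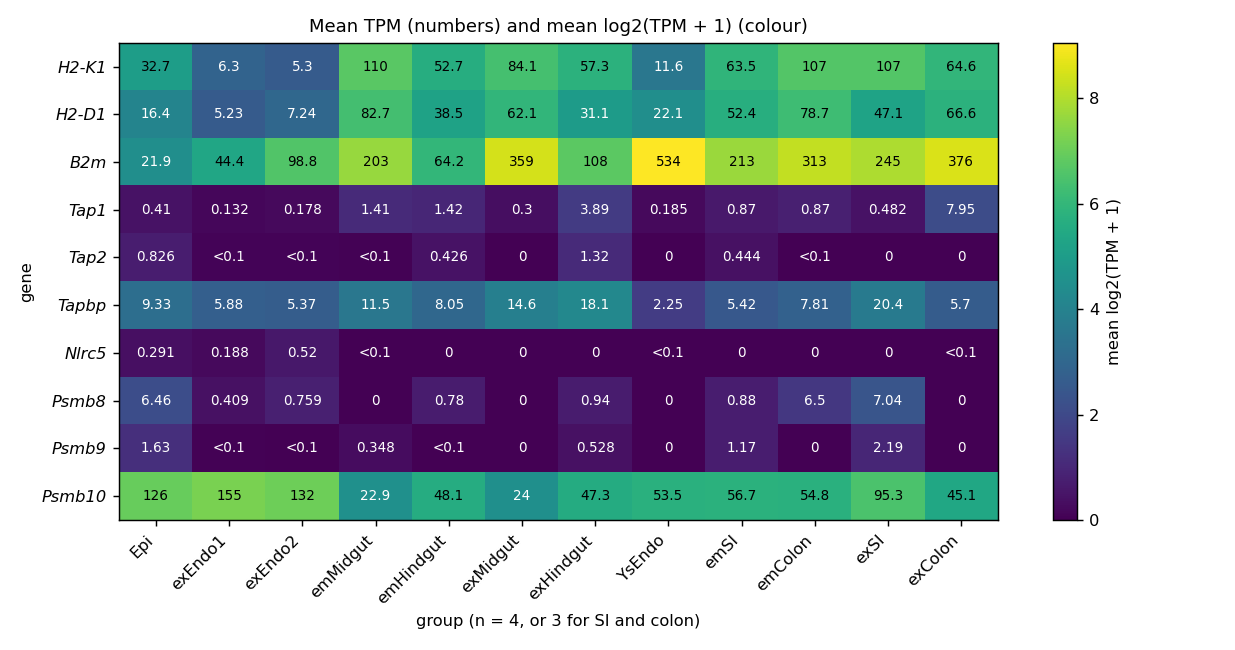
Heat map of the 10 genes (rows) in the 12 groups (columns), with colour giving the mean log2(TPM + 1) and the number in each cell the mean TPM over 4 libraries (3 for SI and colon). H2-K1, H2-D1, B2m, Tapbp and Psmb10 are seen in every group, and Nlrc5 does not exceed a mean of 0.52 TPM in any.

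The heavy chains, which carry the peptide groove, were lower in extraembryonic endoderm than in Epi and did not differ by origin in gut cells beyond the error. In Epi, H2-K1 was at 42.1, 33.7, 33.8 and 21.1 TPM. In exEndo1 it was at 6.27, 6.46, 5.78 and 6.70 TPM, and in exEndo2 at 4.099, 8.04, 3.33 and 5.75 TPM. Every visceral endoderm library was thus below every Epi library, as was also true of H2-D1, at 11.8 to 19.04 TPM in Epi against 3.06 to 7.40 TPM in exEndo1 and 5.58 to 8.84 TPM in exEndo2. A gene was called where limma on log2(TPM + 1) gave an adjusted p (Benjamini-Hochberg over all genes tested) under 0.05 and a difference over 1 on the log2 scale. In exEndo1 against Epi, H2-K1 fell by 2.17 (SE 0.20, adjusted p = 3.1e-06) and H2-D1 by 1.51 (SE 0.24, adjusted p = 0.00023). In exEndo2 against the same Epi libraries, H2-K1 fell by 2.43 (SE 0.26, adjusted p = 5.8e-06) and H2-D1 by 1.08 (SE 0.21, adjusted p = 0.00061). The H2-D1 call in exEndo2 was lost without exEndo2 replicate 2 (-0.98) or replicate 3 (-0.997), on the size of the change. Of the 6 members tested, 3 were called in exEndo1, all lower, where 33.4% of all genes tested were called and 13.6% were called lower, and 3 in exEndo2, 2 lower and 1 higher, where 35.8% were called, 15.4% lower and 20.4% higher. Groups that did not overlap were found for 56.6% and 59.4% of all genes in these comparisons.

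Between E6.5 and E9.5 the heavy chains rose in all of the lineages examined. In exMidgut, H2-K1 was at 104.1, 56.5, 81.0 and 94.9 TPM, and in exHindgut at 75.7, 52.0, 43.5 and 57.9 TPM, all above every exEndo1 library. The rise from exEndo1 to exGut (exMidgut and exHindgut together, n = 8) was 3.24 for H2-K1 (SE 0.22, adjusted p = 4.7e-08) and 2.88 for H2-D1 (SE 0.31, adjusted p = 4.1e-06). The groups were apart for both genes, as they were for 32.7% of all genes. From Epi to emGut (emMidgut and emHindgut, n = 8), H2-D1 rose by 1.69 (SE 0.34, adjusted p = 0.00089) and H2-K1 by 1.16 (SE 0.38, adjusted p = 0.019). The H2-K1 rise from Epi rested on the midgut, with 1.72 (adjusted p = 8.0e-05) for midgut libraries and 0.60 (adjusted p = 0.12) for hindgut libraries alone. It also lost its call after quantile normalization (0.87, adjusted p = 0.066), after median-ratio rescaling (0.90, adjusted p = 0.057) and without Epi replicate 4 (0.97, adjusted p = 0.073), and the median of all genes in that comparison was 0.296. All 5 members tested from exEndo1 to exGut were called, 4 higher and 1 lower, against 30.3% of all genes (18.8% higher, 11.5% lower), and 5 of 7 from Epi to emGut, 3 higher and 2 lower, against 29.7% (22.4% higher, 7.31% lower).

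YsEndo, the extraembryonic endoderm that stays outside the embryo, had less H2-K1 than exGut. H2-K1 was at 14.7, 7.81, 14.9 and 8.98 TPM in YsEndo and H2-D1 at 16.9, 25.9, 16.5 and 29.3 TPM. Replicates 1 and 3 had the higher H2-K1 and the lower H2-D1 values. Every exGut library exceeded every YsEndo library for H2-K1, by 2.50 (SE 0.25, adjusted p = 9.4e-07). H2-D1 was 0.98 higher in exGut (SE 0.30, adjusted p = 0.011), short of a call, and passed it without exHindgut replicate 2 (1.05), 3 (1.09) or 4 (1.05) or YsEndo replicate 2 (1.06) or 4 (1.12). From exEndo2 to YsEndo, H2-D1 rose by 1.47 (SE 0.22, adjusted p = 8.8e-05) and H2-K1 by 1.01 (SE 0.27, adjusted p = 0.0049), the latter lost without exEndo2 replicate 1 (0.92) or 3 (0.84) or YsEndo replicate 1 or 3 (0.88 each). The median of all genes was 0.594 in exGut against YsEndo and -0.408 in YsEndo against exEndo2, and became 0.036 and -0.108 after quantile normalization. Of 5 members tested, 3 were called between exGut and YsEndo, 2 higher in exGut and 1 lower, where 42.4% of all genes were called, 32.3% higher and 10% lower. The groups of 43.5% of all genes did not overlap there. Between YsEndo and exEndo2, 5 of 5 were called, 3 higher in YsEndo and 2 lower, where 29.6% were called, 7.95% higher and 21.6% lower.

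At E9.5 neither heavy chain differed by origin beyond the spread between libraries. H2-K1 was at 139.0, 141.3, 82.5 and 79.4 TPM in emMidgut, and at 58.3, 23.1, 54.9 and 74.4 TPM in emHindgut. For exGut against emGut, with the regions pooled and no region term, the difference was -0.08 for H2-K1 (95% confidence interval -0.70 to 0.53, adjusted p = 0.93) and -0.32 for H2-D1 (-0.96 to 0.31, adjusted p = 0.66). The error of that fit also holds the difference between regions. In limma within the midgut, H2-K1 differed by -0.37 (SE 0.23, adjusted p = 0.47) and H2-D1 by -0.41 (SE 0.22, adjusted p = 0.39). Within the hindgut, H2-K1 differed by 0.20 (SE 0.29, adjusted p = 0.77) and H2-D1 by -0.24 (SE 0.26, adjusted p = 0.68). Between regions, H2-D1 lay at 62.0 to 114.0 TPM in emMidgut and 41.8 to 76.6 TPM in exMidgut, against 20.4 to 51.3 TPM in emHindgut and 25.1 to 39.2 TPM in exHindgut. Over both origins, hindgut was lower than midgut by 1.04 for H2-D1 (SE 0.18, adjusted p = 8.1e-05), a call lost on its size without emMidgut replicate 3 (-0.96), emHindgut replicate 2 (-0.91) or exMidgut replicate 1 (-0.996). H2-K1 was 0.83 lower in hindgut (log2 difference -0.83, SE 0.21, adjusted p = 0.0039), which is under the size for a call. Of 6 members tested, 3 were called between regions, 1 higher in hindgut and 2 lower (14.2% of all genes, 5.54% higher and 8.63% lower), and 0 between origins, where limma called 316 genes (2.35%). At an unadjusted p under 0.05 in limma, 1 of the 6, Tapbp, passed by origin (0.78, adjusted p = 0.14).

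**Figure D2:**
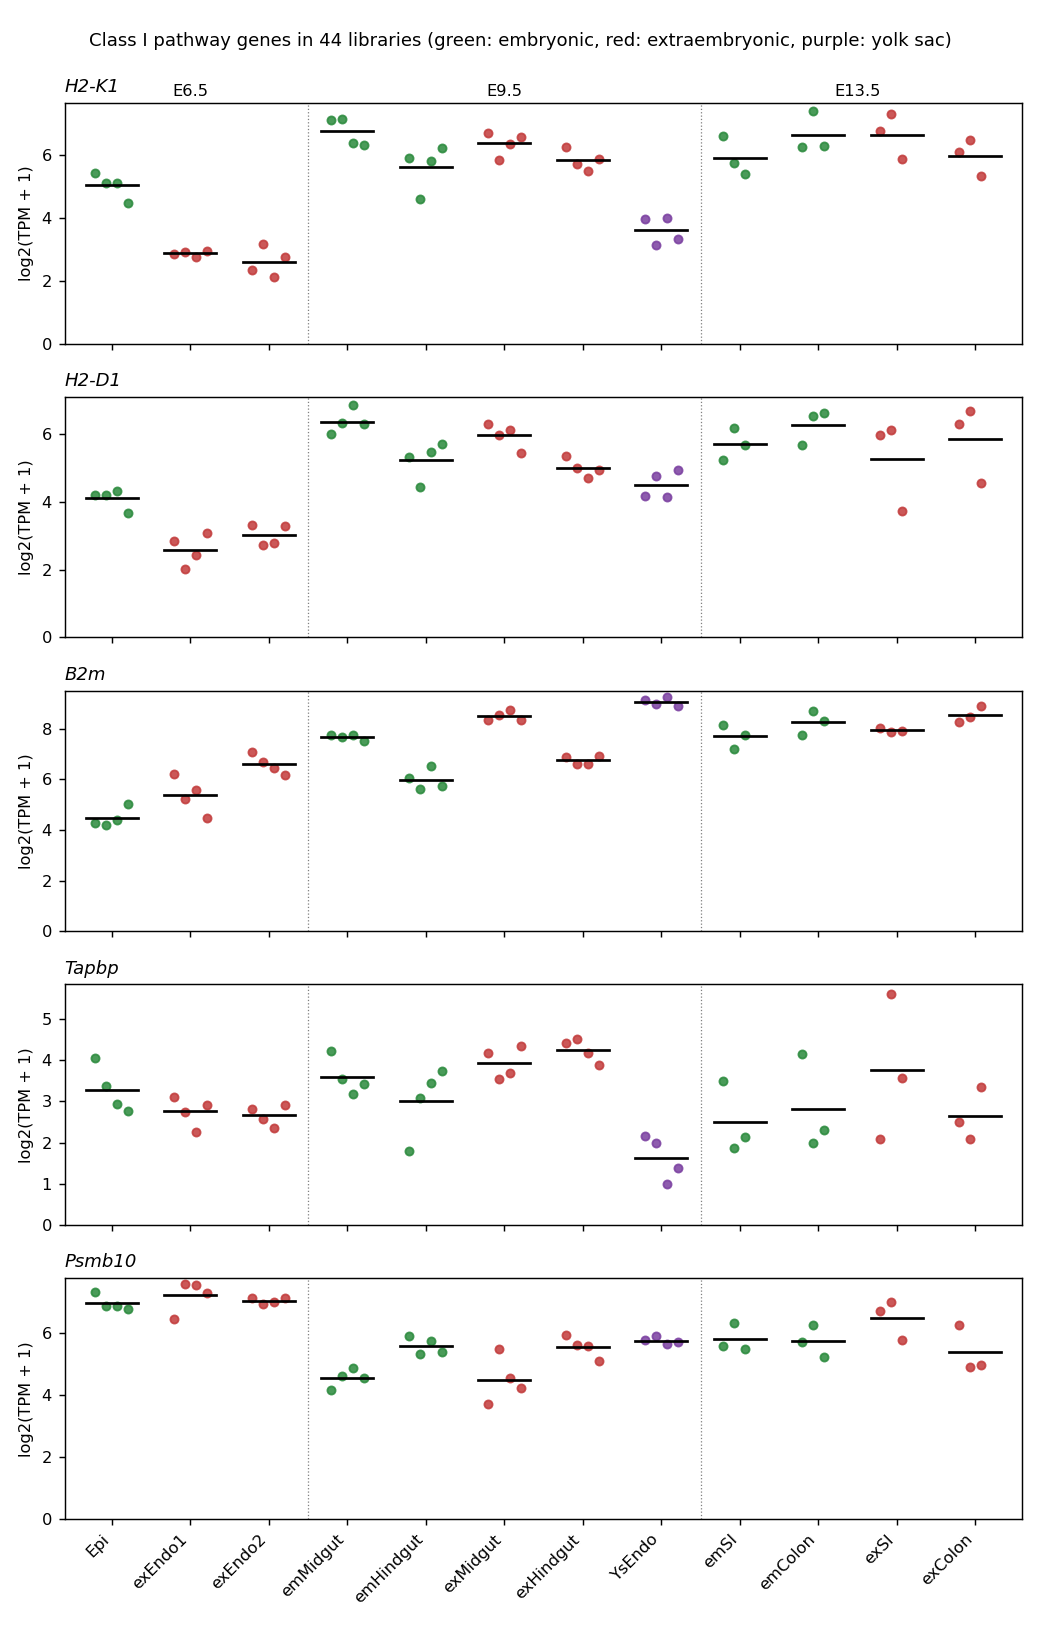
Level of the 5 genes present throughout, as log2(TPM + 1) on the vertical axis, in each of the 44 libraries by group, with each point a library, each bar the group mean, and dotted lines between E6.5, E9.5 and E13.5. H2-K1 and H2-D1 are lowest in exEndo1 and exEndo2 and B2m is highest in YsEndo, while Psmb10 has its highest group means at E6.5.

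The light chain, B2m, followed another order. It was lowest in Epi, at 18.3, 17.2, 20.1 and 31.9 TPM, and was at 73.7, 36.5, 46.6 and 20.96 TPM in exEndo1 and 135.6, 101.6, 86.7 and 71.2 TPM in exEndo2. It was highest in YsEndo, at 553.5, 506.5, 607.4 and 468.6 TPM. The ranges of YsEndo and of exColon (302.2 to 476.2 TPM), next in the order, overlapped. So B2m was higher in the proximal visceral endoderm than in Epi, by 2.13 (SE 0.23, adjusted p = 5.7e-06), where both heavy chains were lower. In exEndo1 it was 0.90 higher than in Epi (SE 0.33, adjusted p = 0.032), short of a call, which it reached without Epi replicate 4 (1.09) or exEndo1 replicate 4 (1.201). Between the visceral endoderm groups it was lower in the distal one by 1.23 (log2 difference -1.23, SE 0.32, adjusted p = 0.025), the 1 of 5 members called there (6.41% of all genes, 2.45% lower). That call was lost without exEndo1 replicate 2 (adjusted p = 0.072) or 4 (-0.93) or exEndo2 replicate 1 (adjusted p = 0.064), 2 (0.060) or 3 (0.055), and stood with same-numbered libraries as a block.

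B2m rose from E6.5 to E9.5 in every lineage: by 2.35 from Epi to emGut (SE 0.42, adjusted p = 0.00036), by 2.25 from exEndo1 to exGut (SE 0.46, adjusted p = 0.00095) and by 2.46 from exEndo2 to YsEndo (SE 0.16, adjusted p = 1.0e-07). At E9.5 it was the only member of the 6 tested whose midgut and hindgut libraries did not overlap. The emMidgut libraries held 213.3, 203.5, 212.4 and 183.8 TPM and the emHindgut libraries 65.5, 48.3, 90.7 and 52.4 TPM. The exMidgut libraries held 321.0, 370.4, 420.6 and 324.5 TPM and the exHindgut libraries 117.6, 96.5, 97.0 and 120.2 TPM. In both regions each extraembryonic library was above each embryonic one, and in both origins each midgut library was above each hindgut one. The region difference was -1.71 (SE 0.11, adjusted p = 1.0e-10), and 8.04% of all genes were likewise apart between regions.

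By origin, B2m was higher in extraembryonic cells by 0.81 in the midgut (SE 0.12, adjusted p = 0.0014) and by 0.77 in the hindgut (SE 0.18, adjusted p = 0.023). Groups that do not overlap were found for 10.3% of all genes in the midgut and 11.9% in the hindgut, and both differences are below the size for a call. With the regions pooled the same difference was 0.79 (SE 0.41, adjusted p = 0.36), and with gut region as a covariate 0.79 with an adjusted p of 4.4e-05. The origin effect did not differ between regions beyond its error (interaction -0.04, 95% confidence interval -0.51 to 0.43, adjusted p = 0.99), and 0 of 6 members were called there (0.0965% of all genes, limma; none with an unadjusted p under 0.05). None of the 10 genes was called in either region (2.58% of all genes in the midgut and 3.07% in the hindgut), and at an unadjusted p under 0.05 B2m passed in both and Tapbp in the hindgut. YsEndo was above every exGut library, with exGut lower by 1.44 (log2 difference -1.44, SE 0.41, adjusted p = 0.0075). The groups of 43.5% of all genes did not overlap there. Against exHindgut alone the difference was -2.30 and against exMidgut alone -0.57, which is no longer a call. The summed visceral endoderm markers were also higher in exMidgut than in emMidgut and higher in midgut than in hindgut, as B2m was, and their part in the B2m values was not tested.

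B2m was thus in different proportions to H2-K1 and H2-D1 in different cells. TPM is corrected for transcript length, which allows a ratio of B2m to the sum of H2-K1 and H2-D1. Between embryonic and extraembryonic groups that ratio also carries the strain difference, as heavy chain alleles of another strain may align less well. Heavy chain reads can also be split among paralogs, and the part of either in the ratio was not tested. It was 0.500 ± 0.317 in Epi and 3.97 ± 1.88 in exEndo1 (mean ± SD, n = 4). In exEndo2 it was 8.09 ± 2.46 and in YsEndo 16.0 ± 3.09, where each library held at least 12.2 B2m transcripts per transcript of H2-K1 or H2-D1. Other class I genes are not in this sum. Among them, H2-Q2 and H2-Q10 were at means of 47.3 and 15.1 TPM in YsEndo, against 10.6 and 2.06 TPM in exGut. In gut endoderm the ratio was 0.781 ± 0.302 in emHindgut, 1.06 ± 0.103 in emMidgut, 1.25 ± 0.182 in exHindgut and 2.53 ± 0.589 in exMidgut. The 4 exMidgut libraries (1.78 to 3.14) lay above the 4 emMidgut libraries (0.928 to 1.18), while exHindgut (1.02 to 1.41) and emHindgut (0.417 to 1.11) overlapped. At E13.5 the means were 1.70 to 3.89, with 1 exColon library at 7.70. No test was made of this ratio.

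**Figure D3:**
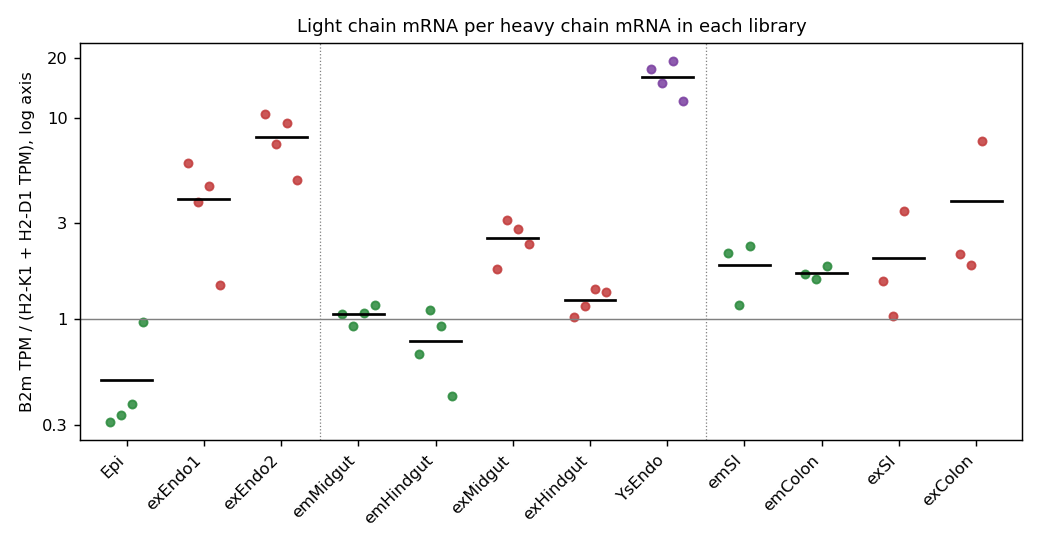
Ratio of B2m TPM to the summed TPM of H2-K1 and H2-D1 (vertical, log axis) in each library by group, with points for libraries and bars for group means. The 4 YsEndo libraries lie between 12.2 and 19.3 and the 4 Epi libraries between 0.309 and 0.973.

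The class I-like molecules that also bind B2m had patterns of their own. The list of other class I and class I-like genes held 19 genes. Fcgrt, which carries antibodies across endoderm, was at a mean of 114.1 TPM in YsEndo against 27.5 TPM in exGut (log2 difference for exGut -2.33, SE 0.50, adjusted p = 0.0010). It was higher than in Epi (0.574 TPM) in exEndo1 (14 TPM, 3.22, adjusted p = 5.3e-07) and exEndo2 (31.1 TPM, 4.21, adjusted p = 3.2e-07). Cd1d1, which presents lipids, went the other way, at 26.5 TPM in exGut and 0.323 TPM in YsEndo (4.15, SE 0.44, adjusted p = 1.9e-06). H2-T22 was also higher in exGut (10.6 against 0.672 TPM, 2.66, adjusted p = 0.00020) and H2-Q10 lower (2.06 against 15.1 TPM, -2.61, adjusted p = 0.00023). Of the 12 list genes tested between exGut and YsEndo, 5 were higher in exGut and 3 lower, where 32.3% of all genes were called higher and 10% lower. Their median was 0.733 against 0.594 for all genes. Of 10 list genes tested in exEndo1 against Epi, 5 were lower and 1 (Fcgrt) higher, where 13.6% of all genes were called lower and 19.8% higher. Their median was -0.819 against 0.092 for all genes. The largest falls were those of H2-Q6 (0.357 against 4.77 TPM, -2.11, adjusted p = 2.4e-05), H2-T22 (0.520 against 4.38 TPM, -1.80, adjusted p = 1.3e-05) and H2-Q4 (1.30 against 4.87 TPM, -1.32, adjusted p = 0.00033). Of 11 tested in exEndo2 against Epi, 5 were lower and 2 higher, where 15.4% of all genes were called lower and 20.4% higher. H2-T22 (-2.28, adjusted p = 6.1e-07) and H2-Q6 (-2.26, adjusted p = 1.3e-06) fell most there, and H2-Q2 was higher with Fcgrt (24.6 against 4.36 TPM, 1.74, adjusted p = 0.036). Between exGut and emGut, 1 of 14 was called, where 2.35% of all genes were. That gene was H2-Q6, at 1.60 TPM in exGut and 9.81 TPM in emGut (-2.18, SE 0.36, adjusted p = 0.00091), a member of a multigene family whose reads can be split among copies and whose alleles go with strain here. By region, limma called H2-Q6 in the hindgut (-2.88, adjusted p = 0.0010) and not in the midgut (-1.49, adjusted p = 0.13). Fcgrt was called higher in exMidgut than in emMidgut (44.3 against 15.4 TPM, 1.46, adjusted p = 0.012 from limma). In the hindgut Fcgrt was not called (10.7 against 11.9 TPM). Over all genes, 2.58% were called in the midgut and 3.07% in the hindgut.

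Among the transport and loading genes, tapasin was measurable in nearly every library and the TAP genes in few. Tapbp was lowest in YsEndo, at 3.45, 2.96, 0.98 and 1.60 TPM, and each exGut library (10.6 to 21.5 TPM) was above that. Its difference between exGut and YsEndo was 2.45 (SE 0.27, adjusted p = 2.9e-06), where the groups of 43.5% of all genes did not overlap. It rose from exEndo1 to exGut by 1.33 (SE 0.25, adjusted p = 0.00049), with a size just under a call (0.996) after quantile normalization, and fell from exEndo2 to YsEndo by 1.029 (SE 0.27, adjusted p = 0.0042). The fall was lost after quantile normalization (-0.58, adjusted p = 0.084) and median-ratio rescaling (-0.73), and without exEndo2 replicate 1 (-0.98) or 4 (-0.95) or YsEndo replicate 3 (-0.82) or 4 (-0.95). In the hindgut at E9.5, Tapbp was at 20.4, 21.5, 16.8 and 13.8 TPM in exHindgut and 2.44, 7.498, 9.90 and 12.4 TPM in emHindgut. The groups were apart, as were those of 11.9% of all genes, and the difference of 1.22 (SE 0.38, adjusted p = 0.084) did not pass the adjusted threshold.

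Tap1 and Tap2, which pair as the peptide transporter, were uneven between libraries of a group. Tap1 was listed at 0.064, 0, 8.83 and 6.68 TPM in exHindgut, at 3.44, 0, 1.05 and 1.16 TPM in emMidgut and at 21.3, 0 and 2.52 TPM in exColon. Tap2 reached its highest value, 3.08 TPM, in exHindgut replicate 1 and was listed at 0 in 27 libraries. Tap1 passed the filter in 12 comparisons and was called in none, and Tap2 passed the filter in only the test of origin by stage. Among the 6 peptide trimming and loading genes outside the 10, Erap1, which trims peptides, was lower than in Epi (5.27 TPM) in exEndo1 (1.23 TPM, -1.49, adjusted p = 1.7e-05) and exEndo2 (1.61 TPM, -1.26, adjusted p = 3.9e-05), and higher in exGut than in YsEndo (11.2 against 1.92 TPM, 1.89, adjusted p = 0.0011). Tapbpl, a relative of tapasin, was also higher in exGut than in YsEndo (3.88 against 0.065 TPM, 2.04, adjusted p = 0.00052), while the chaperone Calr was lower (225.9 against 471.3 TPM, -1.06, adjusted p = 6.3e-08). Calr was higher than in Epi (172.4 TPM) in exEndo1 (374.6 TPM, 1.12, adjusted p = 6.5e-06) and exEndo2 (404.1 TPM, 1.21, adjusted p = 1.2e-05). The other 3 of the 6 were not called in these comparisons, and none of the 6 was called between exGut and emGut. Over all genes, 33.4% were called in exEndo1 and 35.8% in exEndo2 against Epi, 42.4% between exGut and YsEndo and 2.35% between exGut and emGut.

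**Figure D4:**
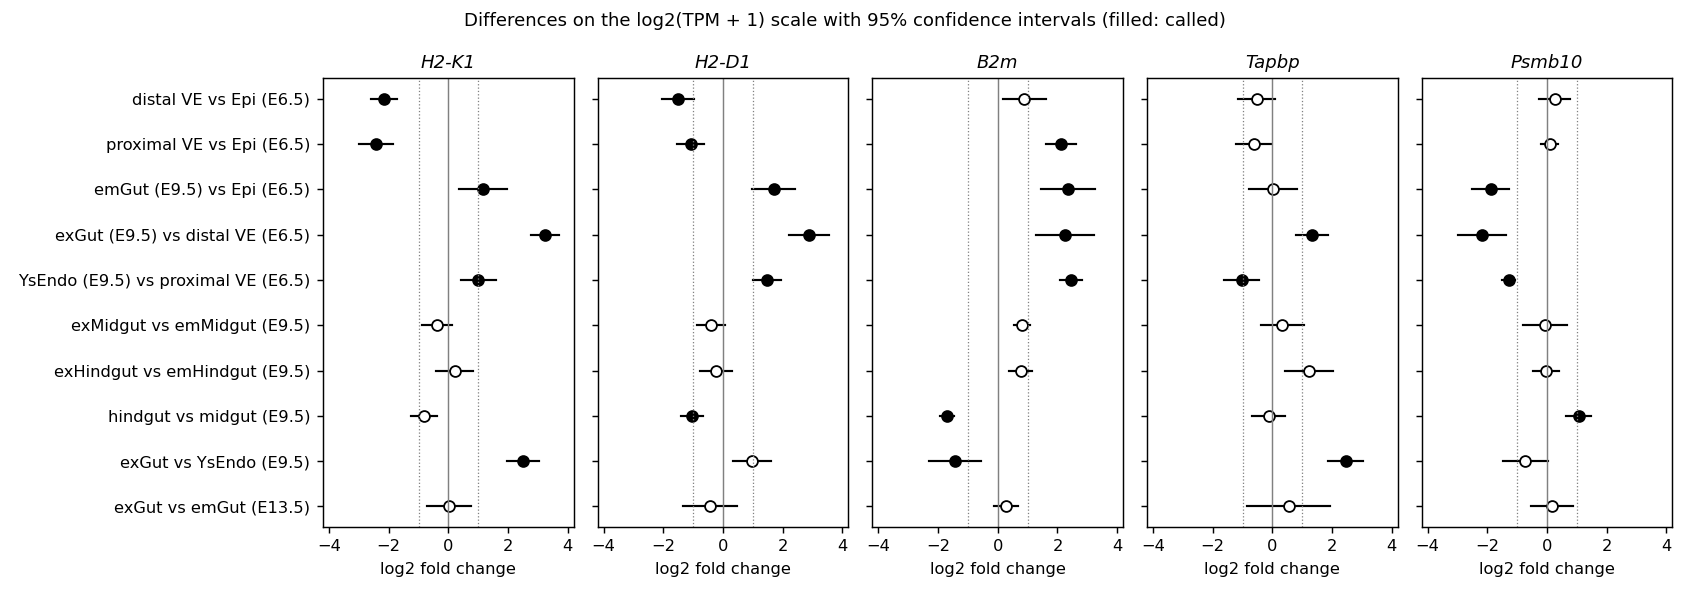
Log2 differences (horizontal) for the 5 genes present throughout in 10 comparisons (rows), as points with 95% confidence intervals, filled where called, with dotted lines at -1 and 1. H2-K1 and H2-D1 lie left of 0 and B2m right of 0 in both rows of visceral endoderm against Epi, and no point is filled in the rows by origin.

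The immunoproteasome genes differed in level. Psmb10 was present everywhere, and Psmb8 and Psmb9, the other 2 subunits, were at or near 0 in most libraries. Psmb10 had its highest group means at E6.5, at 160.2, 116.5, 115.6 and 110.1 TPM in Epi, 86.6, 190.4, 187.9 and 155.3 TPM in exEndo1 and 122.4 to 140.6 TPM in exEndo2. At E9.5 it was at 16.9, 23.5, 28.5 and 22.8 TPM in emMidgut and 12.2, 43.6, 22.7 and 17.6 TPM in exMidgut. It thus fell while the heavy chains rose: by 1.89 from Epi to emGut (SE 0.29, adjusted p = 8.7e-05), by 2.19 from exEndo1 to exGut (SE 0.38, adjusted p = 0.00027) and by 1.29 from exEndo2 to YsEndo (SE 0.10, adjusted p = 5.5e-07), the last being -0.90 after median-ratio rescaling. In all of these comparisons the E6.5 and E9.5 libraries did not overlap, as was so for 33.6%, 32.7% and 59.6% of all genes. Psmb10 was higher in hindgut than in midgut by 1.06 (SE 0.20, adjusted p = 0.00027), a call lost on its size without emMidgut replicate 1 (0.995), exMidgut replicate 1 (0.94) or exHindgut replicate 1 (0.997). By origin at E9.5 its difference was -0.05 (95% confidence interval -0.72 to 0.62, adjusted p = 0.96).

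Set against the constitutive subunit that each replaces, Psmb10 made up 15.3% to 31.1% of Psmb10 and Psmb7 together in the 12 E6.5 libraries. In emGut the share was 6.90% ± 2.29 and in exGut 7.15% ± 2.37 (SD, n = 8 each), and in YsEndo 10.9% ± 0.572 (SD, n = 4). At E13.5 it was 17.0% ± 6.13 in exSI (10.3% to 22.5%, overlapping the E6.5 libraries), 11.1% ± 3.24 in emSI, 9.42% ± 3.42 in emColon and 7.75% ± 3.74 in exColon (SD, n = 3 each). Psmb8 reached at most 3.47% of Psmb8 and Psmb5, and Psmb9 at most 0.450% of Psmb9 and Psmb6, in any library. Both were listed at 0 in all 4 exMidgut libraries, all 4 YsEndo libraries and all 3 exColon libraries. Psmb5 (354.2 to 731.2 TPM), Psmb6 (687.4 to 1624 TPM) and Psmb7 (350.2 to 635.3 TPM) were abundant everywhere, and none of the 3 was called in any of the comparisons. Of the 15 other core subunits and activators, Psme1 and Psme2, the 2 chains of the interferon-inducible PA28 activator, were called. They were lower in exEndo1 than in Epi (Psme1 57.9 against 142.1 TPM, -1.26, adjusted p = 2.5e-05, and Psme2 109.1 against 243.6 TPM, -1.11, adjusted p = 0.00019) and rose from exEndo1 to exGut (177.6 TPM, 1.58, adjusted p = 5.3e-07, and 309.9 TPM, 1.47, adjusted p = 1.1e-06). Both were higher in exGut than in YsEndo, by 1.78 for Psme1 (adjusted p = 1.3e-07) and 1.14 for Psme2 (adjusted p = 9.1e-06), and the remaining 13 of the list were called in none of these 3 comparisons. Over all genes, 13.6% were called lower in exEndo1 than in Epi, 18.8% higher in exGut than in exEndo1 and 32.3% higher in exGut than in YsEndo.

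**Figure D5:**
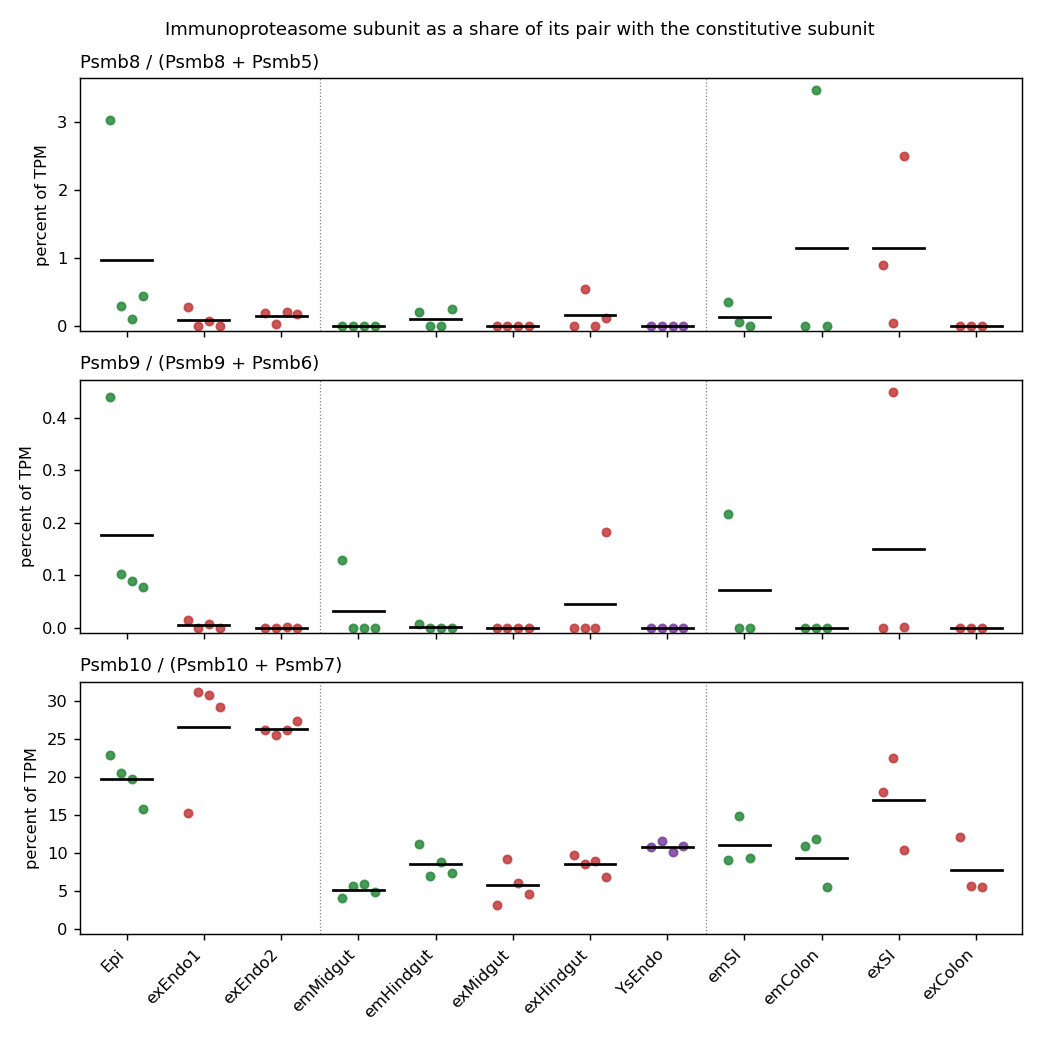
Share of each immunoproteasome subunit in its pair with the constitutive subunit it replaces (vertical, percent of the summed TPM) in each library by group, with bars for group means. Psmb10 reaches 31.1% at E6.5 and at most 11.2% in E9.5 gut libraries and 22.5% in exSI, while Psmb8 stays at or under 3.47% and Psmb9 at or under 0.450%.

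In Epi, 1 library carried most of the Psmb8 signal. Psmb8 was at 20.9, 2.15, 0.70 and 2.15 TPM in the 4 Epi libraries and Psmb9 at 4.09, 0.86, 0.79 and 0.79 TPM, with replicate 1 highest for both and for Psmb10. Psmb8 was called lower in exEndo1 than in Epi (-1.72, SE 0.64, adjusted p = 0.034), though the groups overlapped and the call was lost without exEndo1 replicate 2 (adjusted p = 0.079), 3 (0.060) or 4 (0.081). In exEndo2 against Epi it was not called (-1.35, adjusted p = 0.069) but was without Epi replicate 3 (-1.81, adjusted p = 0.017). From Epi to emGut it fell by 1.80 (SE 0.56, adjusted p = 0.016), and by 1.02 (adjusted p = 0.082) without Epi replicate 1. At E13.5 Psmb8 was at 19.5 TPM in emColon replicate 2 and at 15.2, 5.54 and 0.35 TPM in the exSI libraries.

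Of the regulators of the pathway, Nlrc5 was low in every group and Irf1 was lower in exEndo2 than in Epi. Nlrc5, the class I transactivator, did not exceed 0.723 TPM in any library and was listed at 0 in 29. Its highest mean was in exEndo2 (0.388 to 0.723 TPM), which overlapped Epi (0.129 to 0.510 TPM), and it was tested in 0 of 20 comparisons. Irf1, an interferon-induced transcription factor, was at 18.1 to 32.3 TPM in Epi and 7.03 to 14.5 TPM in exEndo2 (-1.21, SE 0.23, adjusted p = 0.00067), and at 11.3 TPM on average in exEndo1 (-0.99, adjusted p = 0.0035, short of a call). In YsEndo, Irf1 was at 3.37, 3.43, 5.25 and 5.28 TPM, below every exGut library (9.42 to 40.1 TPM, 2.08, adjusted p = 5.1e-05), where the groups of 43.5% of all genes did not overlap. By origin at E9.5 it was not called (0.47, SE 0.39, adjusted p = 0.61).

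In both visceral endoderm groups, each called interferon receptor or signalling gene was higher than in Epi and each called interferon-stimulated gene was lower. Of 9 interferon receptor and signalling genes, 5 were higher in exEndo1 than in Epi and none lower, where 19.8% of all genes were called higher and 13.6% lower. Jak2, a kinase of the interferon receptors, was the most changed (8.57 against 0.443 TPM, 2.74, adjusted p = 6.4e-07), before Ifngr1 (1.34), Irf9 (1.12) and Ifnar1 (1.02, adjusted p for these 5.7e-05, 0.0012 and 0.00023). In exEndo2 5 of 9 were also higher (20.4% of all genes), with Jak2 (2.74, adjusted p = 2.7e-07) and Ifngr2 (1.47, adjusted p = 2.1e-05) the most changed. Of 21 interferon-stimulated genes, 7 were tested in exEndo1 against Epi, and 3 were lower and none higher: Ifit2 (0.496 against 6.03 TPM, -2.23, adjusted p = 5.5e-07), Igtp (-1.79, adjusted p = 7.6e-05) and Oas1a (-1.06, adjusted p = 6.6e-05). In exEndo2 4 of 7 were lower, where 15.4% of all genes were, and none higher: Xaf1 (-2.63, adjusted p = 0.020), Ifit2 (-2.52, adjusted p = 9.6e-08), Igtp (-1.61, adjusted p = 0.00014) and Oas1a (-1.09, adjusted p = 4.8e-05). Both comparisons use the same Epi libraries. Between exGut and YsEndo, 4 of 8 were higher in exGut and 3 lower, where 32.3% of all genes were called higher and 10% lower. Irgm1, a guanosine triphosphatase, was at 42.6 TPM in exGut and 2.63 TPM in YsEndo (3.52, adjusted p = 8.3e-08), and Bst2, which tethers viruses, at 26.8 and 249.7 TPM (-3.39, adjusted p = 4.1e-06). Ifit2 (2.80, adjusted p = 3.8e-06) and Oas1a (1.71, adjusted p = 0.00044) were also higher in exGut. Of 12 transcriptional regulators of class I, 11 were tested between exGut and YsEndo and 8 were higher in exGut, with a median of 1.37 against 0.594 for all genes, of which 32.3% were called higher. Nfkb1 (24.1 against 3.38 TPM, 2.55, adjusted p = 8.7e-07) was followed by Irf1, Rfx5 (1.89, adjusted p = 0.0037) and Irf2 (1.46, adjusted p = 0.026). Nfyb, a subunit of the factor that binds CCAAT, was lower than in Epi (124.6 TPM) in exEndo1 (46.1 TPM, -1.41, adjusted p = 2.3e-05) and exEndo2 (34.9 TPM, -1.79, adjusted p = 5.3e-07). Of the 11 regulators tested, the others called were Nfkb1 in exEndo1 (1.05, adjusted p = 0.0058) and Irf1, Irf2 (1.19, adjusted p = 0.0019) and Rela (1.00, adjusted p = 0.00052) in exEndo2. No gene of the regulator, receptor or interferon-stimulated lists was called between exGut and emGut at E9.5, where 11, 9 and 11 were tested. Over the midgut alone none was called either, and in the hindgut Bst2 was higher in exHindgut (15.0 against 3.30 TPM, 1.87, adjusted p = 0.0054).

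Class II genes and leukocyte markers were checked because immune cells carry high class I. The 6 class II genes summed to at most 42.5 TPM, most of it H2-Ab1 in the midgut (22.98 TPM in emMidgut and 15.0 TPM in exMidgut against 4.86 and 1.56 TPM in the hindgut groups), and H2-Ab1 was called lower in hindgut (-2.59, adjusted p = 3.8e-05), as H2-D1 and B2m were. The 10 leukocyte markers summed to 12.8 to 28.1 TPM in the midgut libraries and to at most 7.66 TPM in the hindgut libraries. In the midgut most of that was Csf1r (15.6 and 17.5 TPM), while Ptprc did not exceed 0.157 TPM and Spi1, C1qa and C1qb were listed at 0 in all 8 midgut libraries. In YsEndo, where B2m was highest, the leukocyte markers summed to 3.08 to 5.01 TPM.

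At E13.5 none of the 10 genes was called by origin, by organ or by their interaction. H2-K1 was at 96.3, 52.8 and 41.4 TPM in emSI and 106.6, 156.4 and 57.8 TPM in exSI, and at 76.1, 167.5 and 76.4 TPM in emColon and 66.8, 87.6 and 39.5 TPM in exColon. B2m was at 281.6, 145.4 and 211.6 TPM in emSI and 262.2, 231.9 and 241.6 TPM in exSI, and at 211.5, 408.9 and 318.1 TPM in emColon and 302.2, 349.0 and 476.2 TPM in exColon. All of these ranges overlapped within an organ. By origin over both organs (n = 6 each) the difference was 0.02 for H2-K1 (95% confidence interval -0.73 to 0.77), -0.43 for H2-D1 (-1.33 to 0.48) and 0.27 for B2m (-0.14 to 0.68), and the adjusted p was 0.66 or more for each. Limma called 78 genes in that comparison (0.625%), and none of the 7 members tested had an unadjusted p under 0.05. By organ, 0 of 7 were called (1.3% of all genes), and only B2m, 0.57 higher in colon (adjusted p = 0.21 from limma), had an unadjusted p under 0.05. In the interaction of origin and organ 0 of 7 were called (0.016% of all genes), and only H2-K1 had an unadjusted p under 0.05 (-1.40, adjusted p = 0.58 from limma). Within colon and within small intestine no member passed (0.269% and 0.738% of all genes were called).

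With regions and organs pooled, the heavy chains did not change beyond their spread from E9.5 to E13.5 in either lineage. In embryonic cells H2-K1 differed by 0.09 (95% confidence interval -0.67 to 0.86) and H2-D1 by 0.18 (-0.50 to 0.87), and in extraembryonic cells by 0.20 (-0.38 to 0.78) and 0.08 (-0.79 to 0.94). The embryonic means went opposite ways. H2-K1 was at 110.5 TPM in emMidgut and 63.5 TPM in emSI, but at 52.7 TPM in emHindgut and 106.7 TPM in emColon. H2-D1 went from 82.7 to 52.4 TPM and from 38.5 to 78.7 TPM in the same pairs. In extraembryonic cells H2-D1 did likewise (62.1 to 47.1 and 31.1 to 66.6 TPM), while H2-K1 was higher at E13.5 in both (84.1 to 106.9 and 57.3 to 64.6 TPM). These pairs were not tested. B2m, pooled in the same way, was 1.14 higher at E13.5 in embryonic cells (SE 0.37, adjusted p = 0.030), the 1 of 7 members called (18.5% of all genes, 2.58% higher). In extraembryonic cells B2m was 0.62 higher (SE 0.35, adjusted p = 0.22), where 0 of 6 were called (13% of all genes). Only Psmb10 had an unadjusted p under 0.05 there (0.91, adjusted p = 0.11). The B2m mean was alike in emMidgut (203.3 TPM) and emSI (212.8 TPM), and higher in emColon (312.9 TPM) than in emHindgut (64.2 TPM). In extraembryonic cells it was lower in exSI (245.2 TPM) than in exMidgut (359.1 TPM), and higher in exColon (375.8 TPM) than in exHindgut (107.8 TPM). The embryonic call was lost without any 1 of the emHindgut libraries (adjusted p = 0.051 to 0.055) or emColon replicate 2 (0.064) or 3 (0.057). Tapbp was called lower in extraembryonic cells at E13.5 only without exSI replicate 2 (-1.37, adjusted p = 0.015), the library with its highest value of 47.3 TPM. The change of B2m with stage did not pass the adjusted threshold between origins (interaction -0.52, 95% confidence interval -0.98 to -0.06, adjusted p = 0.32), and none of 9 members tested was called there (0.705% of all genes; only B2m had an unadjusted p under 0.05). Irf1 rose from 22.95 to 74.3 TPM in extraembryonic cells (1.51, SE 0.38, adjusted p = 0.011), where the median of all genes was -0.28. The exSI libraries held 78.6, 157.6 and 87.8 TPM and the exColon libraries 28.6, 64.8 and 28.6 TPM. In embryonic cells Irf1 was at 18.6 TPM at E9.5 and 39.8 TPM at E13.5, short of a call (1.19, SE 0.46, adjusted p = 0.060), and the change did not differ between origins beyond its error (interaction 0.31, SE 0.53, adjusted p = 0.86). The interferon-stimulated genes Ifi27, Ifi35 and Rtp4 rose in extraembryonic cells (3.17, 2.95 and 2.82, adjusted p = 0.0064, 0.0067 and 0.0094), 3 of 12 tested, and in embryonic cells 1 of 10 was called, Igtp (-2.14, adjusted p = 0.011). Trp53 transcript was at 33.4 to 166.7 TPM in the knockout libraries and 151.3 to 244.6 TPM in the embryonic ones at that stage.

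Rbbp8nl had the group pattern closest to the mean of the 10 genes (r = 0.96 over the 12 group means of log2(TPM + 1), among 14680 genes). It was followed by Rps26 (0.95), Tfrc (0.94), Psme1 (0.94) and P3h4 (0.93). These are descriptions over 12 points that share libraries and strain differences.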

How the data were processed

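Low-input bulk RNA-seq was measured in 44 libraries of 12 groups. Per the study's methods and the submitters' processing notes, the authors used cutadapt 4.1 for trimming, STAR 2.7.9a for alignment to mm10 plus the transgenes, and StringTie 2.0.6 for gene levels on GENCODE annotation. The deposited tables hold TPM, which the authors scaled to a fixed total per library, together with FPKM and coverage. No counts were used, so no count model was fitted, and aligned bases were estimated from the deposited coverage and FPKM of genes with 1 transcript.

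TPM were summed per gene ID. Protein-coding genes outside the Y chromosome with more than 1 TPM in at least 4 libraries (3 for fits of E13.5 alone) were tested with limma 3.58.1 (R 4.3.3) on log2(TPM + 1), with a mean-variance trend, over the groups compared. A pseudocount of 1 understates changes of low genes. Organ was a covariate for origin at E13.5, and origin was a covariate for region and for organ. Interactions used the group means. Other fits that pooled regions or organs, such as exGut against emGut, had no region or organ term. A call needed an adjusted p under 0.05 and a log2 difference over 1 (interactions, the adjusted p alone). The fits were tested on simulated data. Libraries are single embryos or pools of embryos, so p-values measure the spread between those. In the pooled fits without a region or organ term, that spread also holds the difference between regions or organs. Same-numbered libraries deviated together only for exEndo1 and exEndo2 (r = 0.13 to 0.36 in 4 of 4 pairs), a link the labels do not state.

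The 10 genes and all other gene lists were chosen with earlier results of these data known. All 10 genes were described in each comparison. For the other lists the rule named the called genes with the largest changes, at most 4 per list and comparison, and Irf1, Psmb5, Psmb6 and Psmb7 throughout. Lists are described in some comparisons only, and not every gene the rule names is reported here. A pseudocount of 0.1, no filter, FPKM, quantile normalization, median-ratio rescaling, limma without trend, all gene types, all libraries in a single fit, a region covariate at E9.5, no organ covariate at E13.5, a replicate block and leaving out each library were tried. Promoter sequences came from RefSeq (GRCm38.p6).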

Additional observations from a re-analysis of the deposited data

Results flagged for a closer look

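A library far from the other 3 of its group (Dixon's ratio at its 95% critical value) was found in 5 of 97 sets of 1 gene and 1 group with a mean of at least 1 TPM. Chance alone gives about 1 in 20. Epi replicate 1 stood apart for all of the 3 immunoproteasome genes: Psmb8 was at 20.9 TPM against 0.70 to 2.15 TPM in the other 3 Epi libraries, Psmb9 at 4.09 against 0.79 to 0.86 TPM and Psmb10 at 160.2 against 110.1 to 116.5 TPM. The summed interferon-stimulated genes were also highest in that library, at 214.0 TPM against 93.1 to 115.4 TPM, and Irf1 was at 32.3 TPM against 18.1 to 22.1 TPM, and H2-K1 (42.1 against 21.1 to 33.8 TPM) and Tapbp (15.6 against 5.74 to 9.33 TPM) were highest there too. H2-D1 (17.2 TPM) and B2m (18.3 TPM) lay among the other Epi values.

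In emMidgut replicate 1, mCherry was at 5.29 TPM against 0 in the other 3 libraries. Psmb5 was at 574.6 TPM in emMidgut replicate 2 against 529.7 to 536.5 TPM. No member's difference passed a test between origins, regions, organs or stages as an interaction.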

How the results depend on the processing

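Over 427 recomputed counts of members called, 405 stayed within 1.5 times the reported count, and of 2649 recomputed log2 differences of single members 0 changed sign with a call, 52 lost a call and 14 gained one. Of the 29 calls, 16 held under every alternative run, among them the lower H2-K1 in both visceral endoderm groups and the rise of B2m from each E6.5 progenitor. Without the filter on low values, 0 members were called between exEndo1 and exEndo2 (1 in the report), and 0 from emGut at E9.5 to E13.5, as also after quantile normalization and without the variance trend. From exEndo2 to YsEndo, FPKM and median-ratio rescaling each left 3 of 5 calls, and from Epi to emGut the hindgut libraries alone left 3 of 5, a split chosen after seeing the data. Leaving out 1 library gave 0 to 1 members called between exEndo1 and exEndo2, 1 to 3 between hindgut and midgut, 0 to 1 from E9.5 to E13.5 in embryonic and in extraembryonic cells, and 3 to 5 from exEndo2 to YsEndo. Calls in these sets sit near a log2 difference of 1 or an adjusted p of 0.05, and where no library is named the cause was not tested. Same-numbered libraries as a replicate block gave the same counts, such as 1 member between exEndo1 and exEndo2, 3 between hindgut and midgut, 5 from exEndo1 to exGut and 0 by origin at E9.5 and E13.5. No paired analysis was possible from exEndo2 to YsEndo because no 2 of those libraries share a number within a stage. Without both emMidgut libraries with higher epiblast markers, a choice made after seeing the data, 0 members were called by origin and 3 between regions. Without emSI replicate 1, the library with the most mesenchymal marker signal, 0 were called by origin at E13.5. Depth could not be read gene by gene, and low values left Tap1 tested in 12 of 20 comparisons, Psmb8 in 9, Psmb9 and Tap2 in 1 each and Nlrc5 in 0.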
